A study of Mus musculus with 6 samples.

Results

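The immediate early transcription factor genes examined here are Fos, Fosb, Jun, Junb, Jund, Egr1, Atf3, Ier2, Klf6 and Myc. They were listed by name, with no threshold on their values but with earlier results of these data known, and make up 10 of the 16426 genes listed in at least 1 library. Total RNA was sequenced from 6 snap-frozen liver samples of mice on a mixed B6:sv129 background, 7 to 12 weeks old. In 3 of them the mice had received an AAV8 vector, given through the tail vein, with a scrambled short hairpin RNA (shRNA), and in the other 3 the vector carried an shRNA against S1pr2, a receptor for the lipid sphingosine-1-phosphate. The latter are called knockdown livers below. The series text describes all mice as male and as drinking dexamethasone, a synthetic glucocorticoid, at about 0.84 mg/kg for 7 days; the labels of the libraries name the shRNA only, and no liver without the hormone or without vector was analysed here. The sequence of the hairpin and the promoter that drives it are not given in the sources used. The comparison of the groups therefore asks how lowering S1pr2 bears on these genes under glucocorticoid exposure, and does not separate this from whatever else the hairpin does. The samples of a group are called liver 1, 2 and 3 after the numbers in their labels, which do not state that each came from a different mouse; p-values measure the spread between these samples.

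Immediate early genes are transcribed within minutes of a stimulus, without new protein synthesis, because the factors that switch them on, such as SRF with its ternary complex partners and CREB, already sit in the nucleus and are activated by MAP kinases and other kinases. FOS and JUN proteins pair through leucine zippers into AP-1, EGR1 and KLF6 are zinc finger factors, ATF3 is a stress-induced bZIP factor, MYC drives growth and ribosome production, and IER2 is a nuclear protein of the same early response. In liver they are known from regeneration, injury and inflammation, and their mRNAs, which are short-lived, also respond to the handling of the tissue. The activated glucocorticoid receptor is known to restrain AP-1.

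Promoter sequence is shown because CREB and related factors are known regulators of several of these genes. The motifs searched were chosen after the sequences were seen, and no motif was common to all members searched. Windows of 250 bases before the start were matched by symbol in a RefSeq table (GRCm38.p6) for 7 of the 10 members (Fos, Fosb, Jun, Junb, Jund, Atf3 and Klf6). The last 150 bases before the start are printed 5′ to 3′ on the gene's strand for 6 of them, with the short CREB/ATF motif TGACG (or CGTCA, its reverse complement) and the octamer TGACNTCA in capitals.
Fos (chr12:85473740-85473889, plus strand): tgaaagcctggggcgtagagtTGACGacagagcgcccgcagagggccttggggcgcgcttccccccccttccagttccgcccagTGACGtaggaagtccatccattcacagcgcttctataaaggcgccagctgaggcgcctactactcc
Fosb (chr7:19310046-19310195, minus strand): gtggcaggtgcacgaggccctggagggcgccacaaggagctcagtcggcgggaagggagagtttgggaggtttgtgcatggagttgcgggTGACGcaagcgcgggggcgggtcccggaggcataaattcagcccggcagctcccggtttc
Jun (chr4:95052223-95052372, minus strand): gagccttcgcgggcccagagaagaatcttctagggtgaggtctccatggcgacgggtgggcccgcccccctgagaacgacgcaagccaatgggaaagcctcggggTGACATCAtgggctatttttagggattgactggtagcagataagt
Junb (chr8:84978749-84978898, minus strand): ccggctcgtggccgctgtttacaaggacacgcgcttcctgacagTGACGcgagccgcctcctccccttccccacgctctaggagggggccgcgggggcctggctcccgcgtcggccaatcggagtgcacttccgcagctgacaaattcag
Atf3 (chr1:191183334-191183483, minus strand): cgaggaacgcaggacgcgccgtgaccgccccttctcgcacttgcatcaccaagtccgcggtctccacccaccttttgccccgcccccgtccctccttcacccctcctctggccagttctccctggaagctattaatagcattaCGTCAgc
Klf6 (chr13:5861339-5861488, plus strand): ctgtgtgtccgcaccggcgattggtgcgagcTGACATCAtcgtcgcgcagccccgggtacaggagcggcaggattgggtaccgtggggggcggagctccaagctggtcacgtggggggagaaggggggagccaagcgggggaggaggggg
On both strands of the 250 bases, TGACG was found in 4 members (Fos, Fosb, Junb and Atf3) and in 17.8% of all 32851 windows of the table. The octamer, which contains the short motif when N is G, was found in Jun and Klf6 and in 7.49% of all windows, and either of them in 6 of the 7 members and 23.0% of windows. Jund held neither. In Fos a TGACG began 66 bases before the start, ahead of a TATAAA 33 bases before it, and in Jun the octamer began 45 bases before the start. Fosb also held the EGR site GCGGGGGCG (2.57% of windows) and Klf6 the E-box CACGTG (6.02%). The AP-1 heptamer TGAGTCA, searched on both strands, and the CArG box were in none of the 7 windows and in 4.46% and 1.47% of all windows. Member windows on the chromosome that carries Egr1 were left out, so Egr1 was not searched. No window was used for Ier2 or Myc, and the counts cover the other 7 members only. These are matches of letters, not measured binding.

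All 10 members were listed in every library, and their counts were whole numbers throughout, with no reads split between genes. On the length-scaled FPKM scale Jund, the constitutive JUN family member, was the most abundant, with a mean of 23.0 over the 6 livers and a lowest value (17.58) above the highest value of Jun (16.60). Jun (mean 9.20), Ier2 (7.99) and Junb (7.89) followed, with overlapping ranges. Myc (3.42) and Klf6 (3.41) had mean FPKM levels close to each other, as had Atf3 (1.30), Egr1 (1.202) and Fos (1.03), and these neighbours overlapped as well. Fosb was lowest, at 0.03 to 0.37 FPKM, which rested on 2 to 24 counts per liver. The libraries held 16558775 to 17410160 expected counts. Of the 10 genes 9 passed the count filter of the group test; Fosb did not.

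No member was called changed between the groups. With the edgeR quasi-likelihood test, 0 of the 9 tested members had a Benjamini-Hochberg adjusted p under 0.05, where 7.66% of all 12230 genes tested were called, and 1 (Myc) had an unadjusted p under 0.05, where 24.5% of all genes had one. DESeq2, run as an alternative, called 1 member (Myc), where it called 12.2% of genes. Log2 fold changes lay above 0 in 4 and below 0 in 5 of the 9, with a median of -0.03 against 0.01 over all genes, and 8 of the 9 changed sign in at least 1 alternative analysis, Jun and Ier2 also on FPKM and Ier2 with upper-quartile scaling. Without liver 1 of both groups, an alternative chosen after the values were seen, the count called was again 0, where 9.23% of genes were called. Most members varied widely between livers of one group. The within-group SD of log2 CPM (reads per unit of library size, scaled with TMM factors) was above the 95th percentile of all tested genes (0.74) in 6 of the 9: Fos, Jun, Egr1, Atf3, Klf6 and Myc. The median over all genes was 0.20. Ier2 (0.23) and Jund (0.25) lay near it, and Junb (0.39) between.

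**Figure D1:**
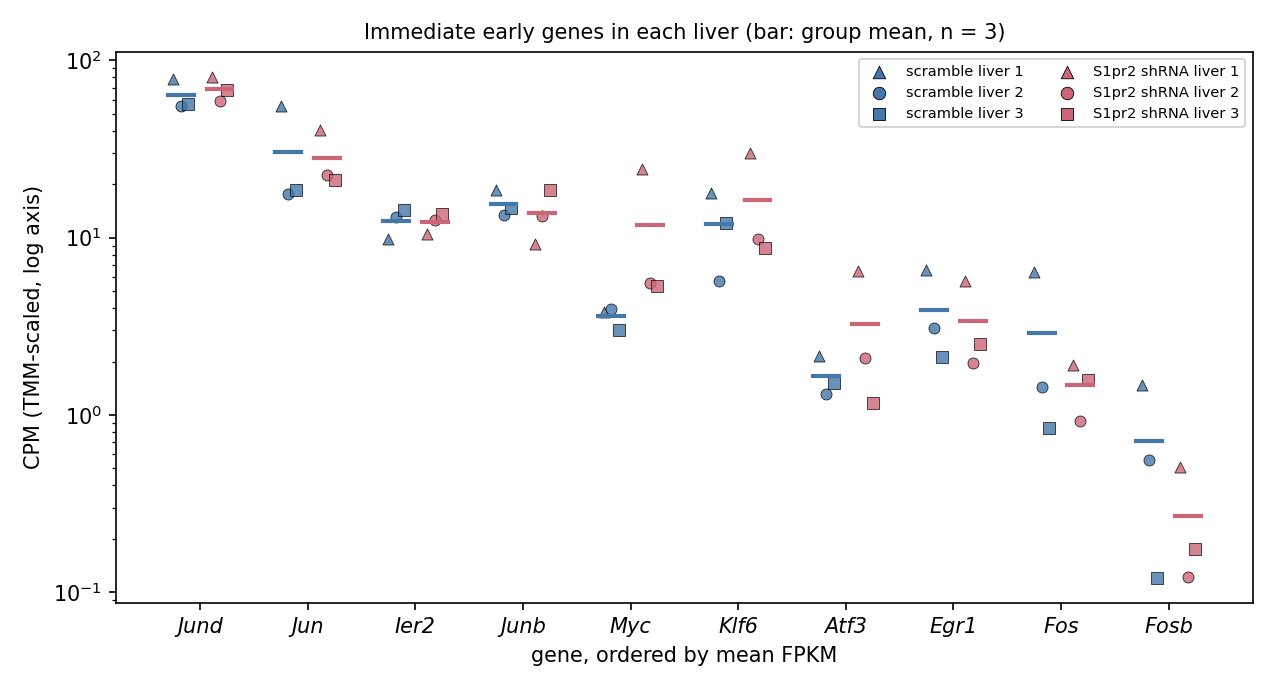
CPM of the 10 immediate early genes in each liver, on a log axis, with genes ordered by mean FPKM; points are livers, with the shape giving the liver number, and bars are group means (n = 3 each). The triangles, liver 1 of each group, lie highest in their group for most genes, and only for Myc do all knockdown livers lie above all scramble livers.

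Among the FOS family genes, Fos, the inducible partner of JUN, was high in a single liver. Scramble livers 1 to 3 held 6.43, 1.43 and 0.847 CPM of Fos, and knockdown livers 1 to 3 held 1.92, 0.919 and 1.58 CPM. All lists of values below keep this order of livers. Scramble liver 1 stood 3.35-fold above the next liver, and the other 5 livers overlapped between groups. The counts behind the 2 highest scramble livers were 105 (95% exact Poisson interval 85.9 to 127) and 23 (14.6 to 34.5), so that this gap was larger than counting error; such intervals cover counting error only. The log2 fold change was -0.97 (SE 0.76, 95% interval -2.78 to 0.85, edgeR adjusted p = 0.498), and without scramble liver 1 it was 0.38 (edgeR adjusted p = 0.708). Fosb, its paralog, had 24, 9 and 2 counts in scramble and 10, 2 and 3 counts in knockdown livers. Liver 1 was the highest of each group for Fosb too, but the 95% Poisson interval of 2 counts reached 7.22, and with no count filter its log2 fold change was -1.36 (SE 0.86, edgeR adjusted p = 0.455).

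The JUN family genes did not share one pattern. Jun, the main transactivating partner in AP-1, was 55.1, 17.5 and 18.5 CPM in scramble and 40.5, 22.5 and 21.0 CPM in knockdown livers. Liver 1 of each group stood above the other 4 livers, which lay close together. Its log2 fold change of -0.12 (SE 0.54, 95% interval -1.46 to 1.23, edgeR adjusted p = 0.926) was 0.64 without scramble liver 1 and -0.48 without knockdown liver 1. Jund, which is expressed in resting cells, was 78.1, 55.6 and 56.9 CPM in scramble and 81.0, 59.1 and 67.8 CPM in knockdown livers. The same livers were highest, over a narrower range, and the groups overlapped (log2 fold change 0.13, SE 0.17, 95% interval -0.27 to 0.52, edgeR adjusted p = 0.712). Junb, often an antagonist of JUN, was 18.6, 13.4 and 14.8 CPM in scramble and 9.26, 13.3 and 18.5 CPM in knockdown livers. Here knockdown liver 1 was the lowest of all 6, at 0.50 times the highest other knockdown liver, the opposite of its place for Jun and Jund. The log2 fold change of Junb was -0.19 (SE 0.25, 95% interval -0.78 to 0.40, edgeR adjusted p = 0.711).

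Egr1, a zinc finger factor induced through SRF, followed Jun. Its level was 6.56, 3.11 and 2.12 CPM in scramble and 5.72, 1.96 and 2.52 CPM in knockdown livers. Liver 1 of each group was more than 2-fold above the others of its group, by 2.11 and 2.27 times, and the groups overlapped (log2 fold change -0.20, SE 0.54, 95% interval -1.48 to 1.08, edgeR adjusted p = 0.867). Ier2 was the steadiest member, at 9.86, 13.1 and 14.3 CPM in scramble and 10.5, 12.5 and 13.5 CPM in knockdown livers. Both livers numbered 1, where most members were high, held the lowest Ier2, as they did for 7.31% of all genes. Its log2 fold change was -0.03 (SE 0.17, 95% interval -0.42 to 0.35, edgeR adjusted p = 0.938), the narrowest interval of the 9.

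Myc, Klf6 and Atf3 were high in knockdown liver 1. Myc was 3.80, 3.98 and 3.03 CPM in scramble and 24.5, 5.57 and 5.33 CPM in knockdown livers. Knockdown liver 1 stood 4.40-fold above the next liver, and all 3 knockdown livers lay above all scramble livers. Myc was the 1 member of 10 with no overlap, where 31.9% of tested genes had none. The group means were 3.60 ± 0.508 and 11.8 ± 11.02 CPM (SD, n = 3 each). The log2 fold change was 1.72 (SE 0.68, 95% interval 0.06 to 3.38), with an edgeR adjusted p of 0.190 (0.0161 in DESeq2; 0.0161 to 0.365 over all alternatives), and the two-sided exact permutation p of its CPM was 0.1, which is as low as 20 assignments of 6 livers can go. Without knockdown liver 1 the Myc difference was 0.60 (SE 0.20, edgeR adjusted p = 0.138).

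Atf3 was 2.14, 1.31 and 1.51 CPM in scramble and 6.48, 2.08 and 1.17 CPM in knockdown livers, and knockdown liver 1 rested on 128 counts (95% Poisson interval 107 to 152) against 20 to 35 elsewhere. That single liver set the log2 fold change of 0.98 (SE 0.62, 95% interval -0.48 to 2.44, edgeR adjusted p = 0.386), which was -0.03 without it. Klf6, which is also expressed by stellate and endothelial cells, was 17.8, 5.72 and 12.1 CPM in scramble and 30.1, 9.80 and 8.78 CPM in knockdown livers. Its groups overlapped, and the log2 fold change of 0.46 (SE 0.63, 95% interval -1.12 to 2.03, edgeR adjusted p = 0.727) was -0.35 without knockdown liver 1 and 0.87 without scramble liver 1.

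**Figure D2:**
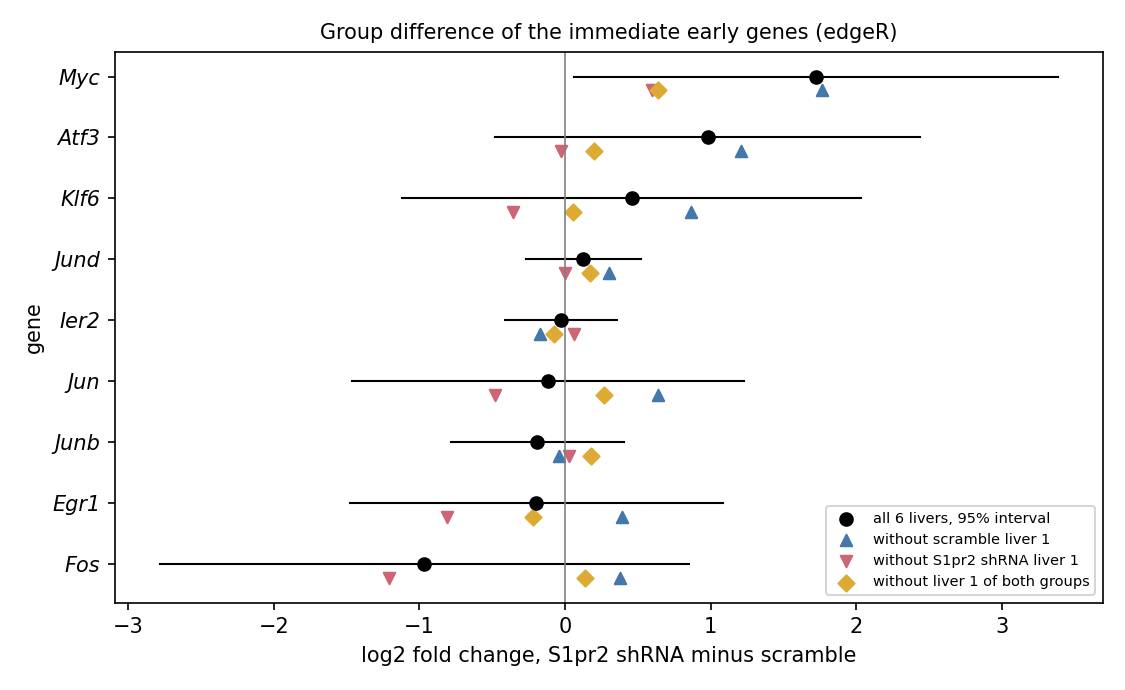
Log2 fold change (S1pr2 shRNA minus scramble) of the 9 tested genes from edgeR, with black points and lines for all 6 livers and their 95% intervals, and coloured symbols for fits that leave out liver 1 of one or both groups. Leaving out knockdown liver 1 took Myc from 1.72 to 0.60 and Atf3 from 0.98 to -0.03, and leaving out scramble liver 1 took Fos from -0.97 to 0.38.

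Across members, the differences between livers were larger than those between groups. In 6 of the 9 tested members (Fos, Jun, Jund, Egr1, Atf3 and Klf6) the 2 highest livers were liver 1 of each group, a pattern seen in 7.82% of all tested genes; these livers were picked after the values were seen, so this is a description without a test. With upper-quartile scaling the count was 5. Scramble liver 1 was the highest of its group in 7 of 9 members, against 38.6% of all genes, and knockdown liver 1 likewise in 7 of 9, against 39.3%. The mean of the members' log2 CPM, each centred on its own mean over the 6 livers, was 0.47, -0.36 and -0.36 in scramble and 0.67, -0.25 and -0.17 in the knockdown livers. The 2 high livers did not raise the same members alike: Fos led in scramble liver 1 (centred value 1.86, against 0.17 in knockdown liver 1), and Myc (2.08 against -0.57) and Atf3 (1.62 against 0.07) led in knockdown liver 1.

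**Figure D3:**
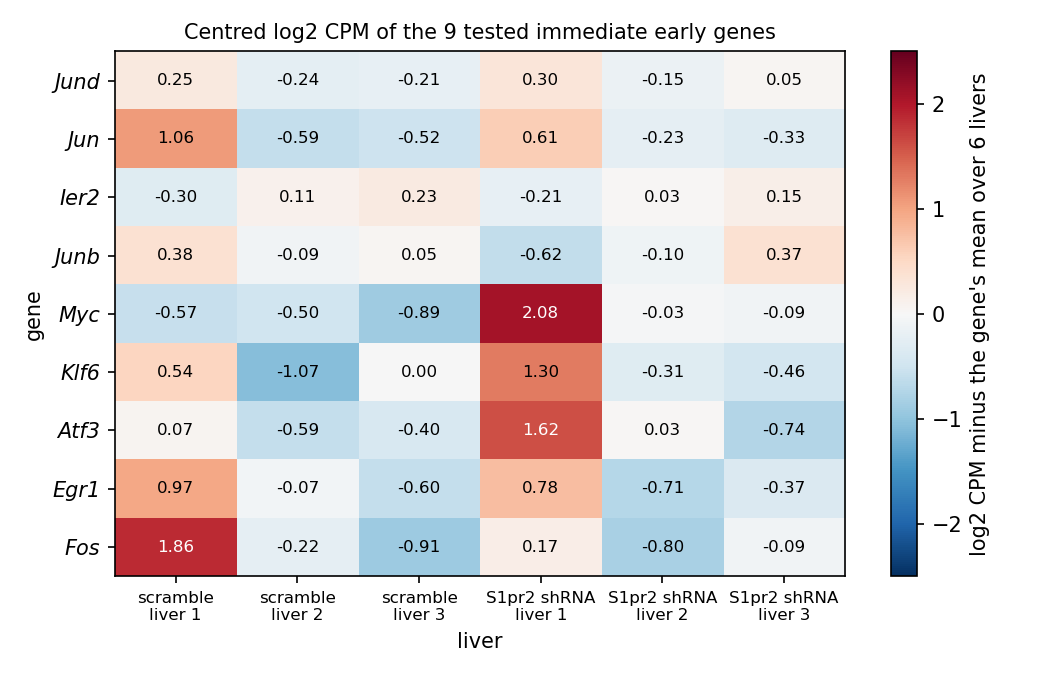
Log2 CPM of each tested gene minus its own mean over the 6 livers (rows, genes by mean FPKM; columns, livers; red above and blue below the mean). Both livers numbered 1 are red for Jun, Egr1, Klf6 and Jund, while Fos peaks in scramble liver 1 at 1.86 and Myc in knockdown liver 1 at 2.08.

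Likeness was measured as the root mean square difference between centred log2 CPM profiles over the 6 livers. Of the 36 pairs of members, Jun and Egr1 were the most alike (0.30 log2 units), followed by Junb with Ier2 (0.36) and Atf3 with Klf6 (0.39), and Fos and Myc the least (1.30). The members' mean profile was also set against all other tested genes whose mean was 5 CPM or more, leaving out predicted and clone names. Of these, Sptan1, which encodes an α-spectrin of the membrane skeleton, was nearest (0.067 log2 units). It was 166, 92.3 and 90.5 CPM in scramble and 176, 105 and 97.4 CPM in knockdown livers. The next were the splicing factor gene Tra2a (0.078), Fads3 (0.079), a fatty acid desaturase family gene, the hydrolase gene Abhd2 (0.11) and Wipf3 (0.11), whose product binds WASP proteins. All 5 were higher in liver 1 of each group than in the other 4 livers, which follows from picking them by nearness to that profile. Their log2 fold changes between groups ran from 0.09 (Fads3) to 0.31 (Abhd2), with edgeR adjusted p from 0.659 (Abhd2) to 0.906 (Fads3), and no call.

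Levels of other gene lists moved with the same livers in part. The 19 tested heat shock and stress genes, which encode chaperones, metallothioneins and cold-inducible RNA-binding proteins, had a mean centred log2 CPM of 0.40 in scramble liver 1 and 0.30 in knockdown liver 1, and -0.35 to -0.02 in the other livers. Of these 19, 12 had their 2 highest values in those livers, against 7.82% of all tested genes. The 10 hepatocyte markers were present throughout, with a summed level of 142245 to 174142 CPM in scramble and 98169 to 135556 CPM in knockdown livers. The sum was lowest in knockdown liver 1, and most of it there was Alb, at 56835 CPM. Apoa1, Cps1, Fgb and Trf had their lowest values in other livers. In knockdown liver 1 Apoa1 stood at 8775 CPM, above all scramble livers (2057, 7807 and 5644 CPM). The 11 macrophage markers summed to 145 to 269.7 CPM in the scramble livers and 206 to 403 CPM in knockdown livers, and the 11 stellate cell and matrix markers to 222.5 to 522 and 345 to 591.5 CPM.

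The sums of these markers separate the 2 livers in which the immediate early genes were high. Knockdown liver 1 had the highest macrophage (403 CPM) and stellate (591.5 CPM) sums of all 6, and scramble liver 1 the lowest (145 and 222.5 CPM). Single markers did not all follow their sums. Marco had its 2 highest values in the livers numbered 1 (29.4 CPM in scramble and 45.6 CPM in knockdown). Timd4 among the macrophage markers, and Lrat, Colec11, Dcn and Rgs5 among the stellate markers, were highest in livers other than knockdown liver 1. No macrophage or stellate marker was listed at 0 in any liver. Summed cholangiocyte markers (7 genes, 43.2 to 72.0 CPM in scramble and 67.4 to 128.7 CPM in knockdown livers) were likewise lowest in scramble liver 1 and highest in knockdown liver 1. By contrast, the sum of the 12 endothelial markers separated the groups (243.5 to 272.8 against 318 to 346 CPM). Of the endothelial markers 5 rose and 7 did not pass the test, so that 41.7% were called against 7.66% of all genes. Log2 fold changes lay above 0 in 11 of the 12 and below 0 in Lyve1. Lyve1 was 11.9, 21.6 and 24.8 CPM in scramble and 15.8, 7.90 and 8.96 CPM in knockdown livers. Lyve1, Pecam1, Clec4g, Oit3 and Ramp2 each overlapped between the groups. The sum of the 9 lymphocyte markers also separated the groups, at a low level. It was 1.53, 4.48 and 3.51 CPM in scramble and 11.2, 14.8 and 9.84 CPM in knockdown livers. Only 2 of the 9 passed the count filter. Neutrophil markers summed to at most 5.7 CPM. The sum of the 6 erythroid genes, most of it globin mRNA, was highest in the same 2 livers as the immediate early genes. Their sums were 930, 551 and 630 CPM in scramble and 926, 623 and 710 CPM in knockdown livers. In 3 of the 4 tested genes, all globin genes, the 2 highest values were in liver 1 of the groups, against 7.82% of all tested genes. The other, Alas2, was 73.3, 126 and 73.3 CPM in scramble and 134, 188 and 165 CPM in knockdown livers. It was highest in knockdown livers 2 and 3, so it did not follow the sum. The paralogs Hba-a1 and Hba-a2 can share reads, so their separate levels are uncertain. Of the 4, 0 were called, where 7.66% of all genes were. In whole liver, fewer cells of a type and less RNA per cell cannot be told apart. The part that cell makeup, erythroid mRNA or the stress genes had in the levels of the members in either liver numbered 1 was not tested.

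**Figure D4:**
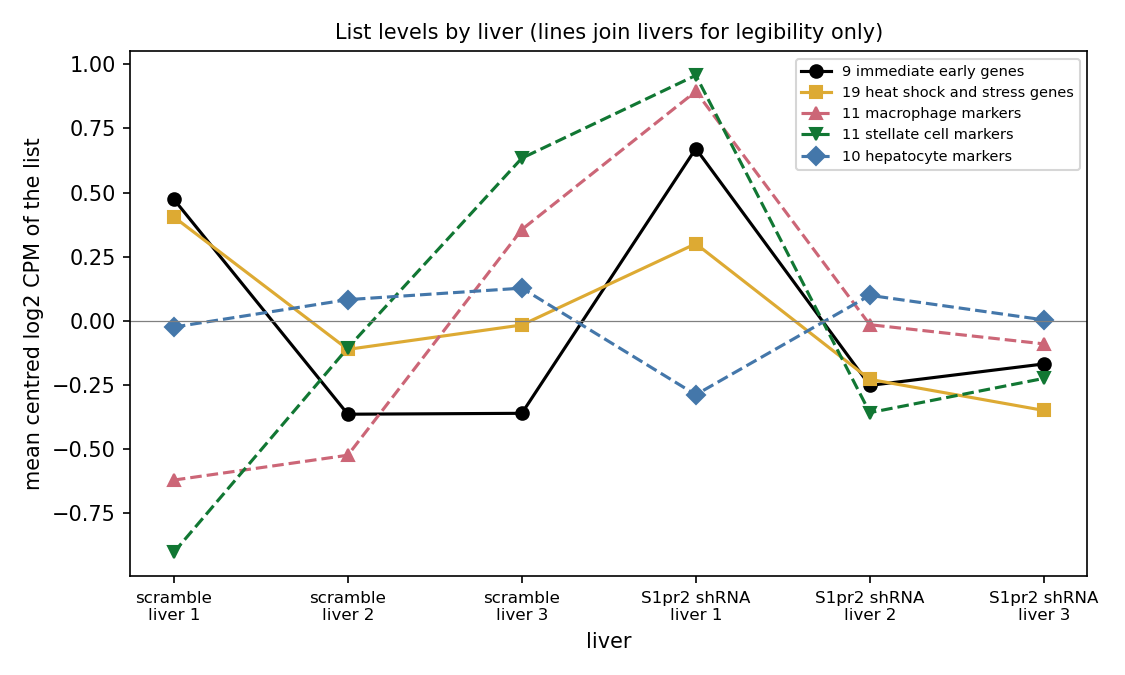
Mean centred log2 CPM of 5 gene lists in each liver (0 is each gene's own mean; lines join livers for legibility only). The immediate early genes and the heat shock and stress genes are highest in liver 1 of each group, while macrophage and stellate markers are lowest in scramble liver 1 and highest in knockdown liver 1.

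Other rapid response genes were called in both directions. Of 64 tested genes in 2 lists (78 of 79 were found), 5 rose, 2 fell and 57 did not pass the edgeR test, so that 10.9% were called against 7.66% of all genes. Klf10, a TGF-β inducible Krüppel-like factor gene, fell from 67.4, 137.6 and 105.8 CPM in the scramble to 15.8, 31.8 and 30.1 CPM in knockdown livers (log2 fold change -2.002, SE 0.36, edgeR adjusted p = 0.0280). Dusp1, whose product inactivates the MAP kinases upstream of FOS and JUN, fell from 112.2, 92.4 and 63.2 CPM to 17.7, 18.8 and 29.9 CPM (-2.01 on the log2 scale, SE 0.28, edgeR adjusted p = 0.0118). Both falls were without overlap between the groups, and Dusp1 in knockdown liver 1 was the lowest of all livers, at 17.7 CPM. The transcription factor genes Irf1 (0.82), Tsc22d1 (1.27) and Id1 (1.62) rose, as did Mcl1 (0.76), which encodes an anti-apoptotic BCL2 relative, and the polo-like kinase gene Plk2 (1.26). Id1, an inhibitor of basic helix-loop-helix factors, went from 2.97 ± 1.42 to 9.18 ± 1.73 CPM, and Tsc22d1 from 70.2 ± 17.3 to 169 ± 31.7 CPM (SD, n = 3 each). Irf1 had fractional counts in 3 libraries, so its value is uncertain. The median log2 fold change was 0.00 in the list of 24 transcription factors and -0.13 in the list of 40 other genes, against 0.01 over all genes.

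In the rapid response lists 13 of the 64 genes were highest in liver 1 of both groups, 2 among the transcription factors and 11 among the others. Over all tested genes this pattern held in 7.82%. Only Mcl1 of the 7 calls was kept under every alternative run. The count called was 16 with DESeq2, where 8 rose and 8 fell, 11 with the replicate block, and 13 without liver 1 of both groups. Over all genes DESeq2 called 12.2%, and edgeR without liver 1 of both groups called 9.23%. The rapid response count was 4 when scramble liver 2 or 3 was dropped and 2 when knockdown liver 2 was. The share of all genes called with the replicate block or without 1 liver is not given here. The counts of those fits therefore cannot be set against it. Without knockdown liver 2 the edgeR adjusted p was 0.0834 for Klf10, 0.116 for Id1, 0.0655 for Tsc22d1, 0.0779 for Plk2 and 0.0600 for Dusp1. Without scramble liver 3 it was 0.0696 for Klf10, 0.105 for Id1 and 0.0549 for Tsc22d1, and without scramble liver 2 it was 0.0600 for Klf10, 0.0611 for Plk2 and 0.0520 for Irf1. Without knockdown liver 3 it was 0.0782 for Klf10, 0.108 for Id1 and 0.0535 for Irf1, and without knockdown liver 1 it was 0.0530 for Id1. Dusp1 was also lost with the replicate block (edgeR adjusted p = 0.0602) and without liver 1 of both groups (0.0758).

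Upstream, the MAP kinase cascade had no called gene. Of its 38 tested genes, from RAS and RAF to the terminal kinases and the Sprouty inhibitors, 0 passed the edgeR test, where 7.66% of all genes did, and 10 had an unadjusted p under 0.05, where 24.5% of all genes had one. Limma-voom called 0 and DESeq2 4, Map3k14 and Mapk13 among them, where DESeq2 called 12.2% of all genes. The largest log2 fold changes were in Map3k14, the NF-κB inducing kinase gene (0.95, edgeR adjusted p = 0.0653), the p38δ gene Mapk13 (0.86, edgeR adjusted p = 0.0688) and the feedback inhibitor gene Spry2 (0.74, edgeR adjusted p = 0.254). The median of the cascade was -0.03. Of the 12 genes for SRF, its partners and nuclear coactivators, 1 fell and 11 did not pass (8.33% called, against 7.66% of all genes). Elk4, a ternary complex factor gene, was 10.05, 8.84 and 9.56 CPM in scramble and 5.97, 5.51 and 5.21 CPM in knockdown livers (log2 fold change -0.77, SE 0.14, edgeR adjusted p = 0.0175). Its groups did not overlap. The median of this list was 0.10. In 6 of the 12 genes the 2 highest values were in liver 1 of the groups, against 7.82% of all tested genes.

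Of 13 tested bZIP partners of FOS and JUN, 2 rose and 11 did not pass, with a median of 0.14. Thus 15.4% were called, against 7.66% of all genes. Ddit3, which encodes the stress factor CHOP, rose from 3.23 ± 0.442 to 7.14 ± 1.01 CPM (SD, n = 3 each), by 1.14 on the log2 scale (SE 0.19), with an edgeR adjusted p of 0.0142. Its counts were fractional in 5 libraries. Nfe2l2, which encodes the antioxidant regulator NRF2, rose from 75.9, 72.4 and 74.5 CPM in the scramble to 136, 92.6 and 113 CPM in knockdown livers (0.62, SE 0.15, edgeR adjusted p = 0.0433). The highest of them was again knockdown liver 1.

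Among the 12 tested partners and antagonists of MYC, 1 fell and 11 did not pass, with a median of -0.21. The share called was 8.33%, against 7.66% of all genes. The faller was the paralog Mycl, at 30.6, 18.5 and 24.4 CPM in scramble and 10.4, 14.0 and 11.9 CPM in knockdown livers (log2 fold change -1.02, SE 0.20, edgeR adjusted p = 0.0242). Knockdown liver 1, where Myc was highest, had the lowest Mycl of the 6. The 28 genes of ribosome making and growth known as MYC targets had a median of 0.06, and a mean centred log2 CPM of 0.18 in knockdown liver 1 and -0.13 to 0.06 in the other livers. Of them 27 did not pass and 1 fell: Utp20, a ribosome assembly factor gene (-0.50, SE 0.12, edgeR adjusted p = 0.0393). Here 3.57% were called, against 7.66% of all genes.

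In the heat shock and stress list 1 of 19 genes fell and 18 did not pass (5.26% called, against 7.66% of all genes). The median was 0.00. Hspd1, the mitochondrial chaperonin gene, was 307.6, 243 and 271 CPM in scramble and 127, 131 and 131 CPM in knockdown livers (log2 fold change -1.08, SE 0.13, edgeR adjusted p = 0.00531). Of 15 tested hypoxia genes 2 rose and 13 did not pass (median -0.06, with 13.3% called against 7.66% of all genes). They were Ndrg1 (0.97, SE 0.13, edgeR adjusted p = 0.00772), a gene known to rise in hypoxia, and Egln3 (0.66, SE 0.11, edgeR adjusted p = 0.0157), which encodes a HIF prolyl hydroxylase. Hspd1 and Ndrg1 kept their calls under every alternative run.

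Each of the other calls of these lists was lost in some of the fits that left out 1 liver. Their log2 fold changes kept their sign in these fits. They ran from -0.828 to -0.724 for Elk4, 0.58 to 0.708 for Egln3 and -0.571 to -0.425 for Utp20. The ranges were -1.195 to -0.826 for Mycl and 0.47 to 0.744 for Nfe2l2, and the lowest value for Ddit3 was 1.017. Without knockdown liver 2 the edgeR adjusted p was 0.0518 for Ddit3, 0.0779 for Elk4, 0.0648 for Mycl, 0.140 for Utp20 and 0.0687 for Egln3. Without scramble liver 3 it was 0.0501 for Ddit3, 0.0583 for Elk4, 0.0735 for Mycl, 0.105 for Utp20, 0.121 for Nfe2l2 and 0.0580 for Egln3. Without knockdown liver 3 it was 0.0604 for Elk4, 0.0840 for Mycl, 0.0985 for Utp20 and 0.112 for Nfe2l2, and without knockdown liver 1 it was 0.0646 for Mycl and 0.0690 for Nfe2l2. Nfe2l2 and Utp20 were also lost without scramble liver 1 (0.0866 and 0.0535) or 2 (0.127 and 0.109). On FPKM with a pseudocount of 0.1 the limma adjusted p was 0.0743 for Elk4, 0.0568 for Mycl, 0.0603 for Nfe2l2 and 0.242 for Utp20.

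The target of the hairpin, S1pr2 (Entrez gene 14739), was lower in the knockdown livers, at 4.41, 5.23 and 6.66 CPM in scramble and 3.04, 2.20 and 2.22 CPM in knockdown livers (log2 fold change -1.12, SE 0.24, edgeR adjusted p = 0.0301). The groups did not overlap. The highest S1pr2 of the knockdown group and the lowest of the scramble group were in the livers numbered 1. Across the replicates left out in turn the S1pr2 difference ran from -1.29 to -0.95, and its call was lost when liver 2 (edgeR adjusted p = 0.0785) or 3 (0.0962) of the scramble group, or liver 2 (0.117) or 3 (0.101) of the knockdown group, was dropped. The call was also lost on FPKM (limma adjusted p = 0.0677 with a pseudocount of 0.1 and 0.0684 with 1) and with the replicate block (edgeR adjusted p = 0.0684).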

How the data were processed

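RNA-seq gene tables of 3 scramble and 3 knockdown livers were used, 1 table per library. They hold the expected count of each gene, the fragments assigned to it without scaling to depth, and FPKM, scaled by the authors per kilobase of transcript and to the mapped fragments. The submitters' processing notes name the mm9 build and the tools RSEM 1.2.12, Bowtie2, HISAT2 and DESeq2, without their roles. The strand handling and read filters are not given in the sources used, so reads of overlapping genes on opposite strands cannot be separated. Genes not listed in a library were set to 0.

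The deposited expected counts were rounded, filtered with filterByExpr (minimum count 10), scaled by TMM and tested over all genes with the edgeR 4.0.16 quasi-likelihood F test (robust, group only, two-sided) in R 4.3.3, with Benjamini-Hochberg adjustment and a threshold of 0.05. Genes without a symbol (19 to 23 in a library, 0.204 to 0.255% of counts) were kept under their ID. The code was tested on simulated data. Log2 CPM used a prior count of 2; 95% intervals of log2 fold changes used the t quantiles of the fit. Alternatives were other scalings and filters, DESeq2 1.42.0, limma 3.58.1 (voom, or log2 FPKM plus 0.1 or 1, mean FPKM at least 0.1), no robust option, the replicate block and each liver left out. Named genes were all members, S1pr2, from each pathway list the called genes (up to 6) or otherwise the 3 with the largest change, and the 5 genes nearest to the members' mean profile. The members, lists and tests were chosen with earlier results of these data known, and the promoter motifs after the sequences were seen.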

Additional observations from a re-analysis of the deposited data

How the results depend on the processing

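The count of called members was 0 under every alternative except the DESeq2 Wald test (1, Myc, log2 fold change 1.72). Of the members tested, only Myc kept its direction throughout; without 1 liver its log2 fold change ran from 0.60 to 2.06. The others ran from -1.41 to 0.38 (Fos), -0.48 to 0.64 (Jun), -0.48 to 0.029 (Junb), -0.002 to 0.30 (Jund), -0.81 to 0.39 (Egr1), -0.029 to 1.37 (Atf3), -0.17 to 0.081 (Ier2) and -0.35 to 0.87 (Klf6). Jun reversed to 0.036 with limma-voom and to 0.18 and 0.15 on FPKM with pseudocounts of 0.1 and 1, and Ier2 to 0.028 with upper-quartile factors and to 0.13 and 0.11 on FPKM. The all-gene median was 0.157 and 0.102 on FPKM with these pseudocounts and 0.012 with TMM. Without liver 1 of both groups, Fos was 0.14, Jun 0.27 and Junb 0.18. Of the genes nearest to the members' profile, without 1 liver Abhd2 ran from -0.01 to 0.71, Fads3 from -0.23 to 0.48, Sptan1 from -0.20 to 0.47, Tra2a from -0.061 to 0.53 and Wipf3 from -0.061 to 0.67. The other rapid response genes called numbered 7 of 64, where 7.66% of all genes were called. They numbered 16 with DESeq2 (12.2% of all genes), 11 with the replicate block, 13 without liver 1 of both groups (9.23% of all genes), and 2 to 10 without 1 liver. For the replicate block and the fits without 1 liver, the share of all genes called is not given here. The causes of these changes were not tested.

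Same-numbered livers had correlations of their deviations from the group means, over 12230 genes, of -0.06, 0.22 and -0.12. Not every liver correlated best with its own number. These correlations over all genes do not decide whether the numbers mark a shared batch, which was not tested. The SE of the log2 fold change fell with the replicate block from 0.54 to 0.17 for Jun, 0.63 to 0.28 for Klf6 and 0.54 to 0.26 for Egr1. It fell for the other tested members too, except Junb (0.253 to 0.275). With the replicate block the count of called members was 0, Jun was 0.021, and of the other named calls Mycl (edgeR adjusted p = 0.0715), Utp20 (0.0750), Dusp1 (0.0602) and S1pr2 (0.0684) were lost. Utp20 was also lost with upper-quartile factors (0.0663) and Nfe2l2 with limma-voom (limma adjusted p = 0.0506). Depth limits Fosb most, with 2 to 24 counts.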
